A study of Homo sapiens with 15 samples.

Results

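Solute carrier (SLC) genes encode the membrane proteins that move nutrients, ions, metals and drugs into and out of cells and organelles. They were taken as the protein-coding symbols that start with SLC, a family number, the letter A and a member number, which leaves out lettered subfamilies such as SLC35B. This gave 262 of the 14432 genes of the deposited tables, and 14 further rows with such a symbol are not protein coding. RefSeq lists 351 protein-coding symbols of this form, so the other members are not analysed here. The members were split into 34 SLC25 genes, the mitochondrial carriers, and 228 other SLC genes.

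Most SLC25 proteins sit in the inner mitochondrial membrane and exchange metabolites, nucleotides or cofactors between the cytosol and the matrix. The other families work mostly at the plasma membrane or in other organelles. In the kidney tubule, apical and basolateral SLC proteins take back sugars, amino acids, phosphate and sodium from the filtrate and secrete organic acids and bases.

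All libraries were made from the HEK293T T-REx line, derived from human embryonic kidney, which carries the tetracycline repressor so that a transgene can be induced. PHC1 is a subunit of Polycomb repressive complex 1. PAR-CLIP feeds cells a photoreactive nucleoside, so that light crosslinks RNA to a bound protein, and the reads form clusters where that protein touched RNA. In cells with a PHC1 transgene, pulled down with streptavidin beads, PHC1 had 2 PAR-CLIP libraries. Its comparators came from cells without a transgene, namely 2 total nuclear RNA libraries, and 2 RNA polymerase II (RNAPII) PAR-CLIP libraries made with an antibody to its C-terminal domain, 1 with 4-thiouridine (4SU) and 1 with 6-thioguanosine (6SG). PHC1 and RNA libraries thus differed in the transgene as well as in the assay, and these cannot be told apart. ChIP comprised 2 PHC1 dFCS libraries from cells with a PHC1-dFCS transgene, 2 PHC1 libraries from cells with the PHC1 transgene, and, from cells with no transgene, single libraries of H3K4me3, H3K27me3, EZH2, RNAPII and input. Cells for ChIP were fixed with 1% formaldehyde for 6 minutes. Nothing in the labels says that replicates came from separate cultures, so the spread between them may be technical.

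Gene counts summed to 47187882 and 49626658 reads in the nuclear RNA libraries. The PHC1 libraries had 696186 and 698056 clusters, the 4SU library 667937 and the 6SG library 45259, so the 6SG values are the sparsest. Of all summed coverage in PHC1 library 1, the 10 deepest clusters held 22.6%, against 3.72% in PHC1 library 2. The label of the cells was checked against markers, and tubule markers outside the SLC families were mostly absent. Of 14 such markers in the tables, 4 reached 1 CPM (counts scaled to 1000000 per library) in both RNA libraries. LRP2, the endocytic receptor megalin, had 129 and 124 CPM, and PAX2, a kidney developmental factor, had 7.42 and 8.36 CPM. UMOD and AQP2, defining markers of the thick limb and the collecting duct, had at most 0.0202 and 0.0424 CPM. Of 7 neuronal markers 3 reached 1 CPM, among them NEFL at 141 and 142 CPM, and of 5 fibroblast markers 1 did. None of 4 blood, 5 hepatocyte and 3 keratinocyte markers did.

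RNA was found for most SLC25 genes and for most other SLC genes. At 1 CPM or more in both libraries, 30 of 34 SLC25 genes and 149 of 228 other SLC genes had RNA, beside 69.8% of all genes and 73.3% of protein-coding genes. Those counts are 88.2% of the SLC25 genes and 65.4% of the others, and whether the sets differ was not tested. Per kilobase of gene region, the median level was 1.34 CPM per kb over SLC25 genes, 0.186 CPM per kb over other SLC genes and 0.568 CPM per kb over all genes. The regions had a median length of 25.2 kb, 36.5 kb and 23.8 kb in that order. Summed over all SLC genes, the RNA libraries had 13338 and 13038 CPM, of which SLC25 genes held 1847 and 1833 CPM. The gene nearest under the threshold was SLC6A13 at 0.987 CPM in its lower library, and the nearest above it was SLC16A11 at 1.04 CPM.

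The highest SLC25 level per kilobase belonged to SLC25A1, the citrate carrier that exports mitochondrial citrate for lipid synthesis (Entrez 6576, chromosome 22, bases 19163088 to 19166338 of hg19). It had 228 and 209 CPM, or 67.3 ± 4.22 CPM per kb (SD, n = 2). SLC25A11, the oxoglutarate and malate carrier, followed with 101 and 96.7 CPM, or 32.6 CPM per kb. SLC25A39, which carries glutathione, had 115 and 109 CPM, or 21.4 CPM per kb. These 3 genes are short, and their libraries lie closer to each other than the genes do, so their order holds beyond the spread.

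Next came SLC25A4, the ADP and ATP exchanger of heart and muscle, with 61.6 and 57.9 CPM (8.39 CPM per kb). SLC25A36, a pyrimidine nucleotide carrier, had 220 and 228 CPM over a longer region, or 5.87 CPM per kb. Without the division by length its mean of 224 CPM was the highest of the SLC25 genes, though its libraries overlap those of SLC25A1. SLC25A46, an outer membrane protein of mitochondrial dynamics, had 137 and 134 CPM, or 5.50 CPM per kb. The levels per kb were 3.94 for SLC25A38, a glycine carrier, 3.93 for SLC25A51, the NAD carrier, 3.32 for SLC25A22, a glutamate carrier, and 3.00 for SLC25A27, an uncoupling protein homologue. SLC25A38 and SLC25A51 do not differ beyond the spread of their libraries. SLC25A52, an intronless near-copy of SLC25A51, had 1.44 and 1.91 CPM. Reads of these copies may not be told apart, so both levels are uncertain.

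4 SLC25 genes fell short of 1 CPM. SLC25A31, the testis ADP and ATP exchanger, had 0.403 and 0.343 CPM, SLC25A47, a liver carrier, 0.170 and 0.302 CPM, SLC25A2, an ornithine carrier, 0.0848 and 0.0403 CPM, and SLC25A34 0.975 and 0.685 CPM. By substrate, 11 of 12 nucleotide, cofactor and phosphate carriers in the tables had RNA, 10 of 11 carboxylate and amino acid carriers, all 3 metal and glutathione carriers and 6 of 8 others. The main ADP and ATP exchangers of dividing cells and the phosphate carrier are not analysed here.

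**Figure D1:**
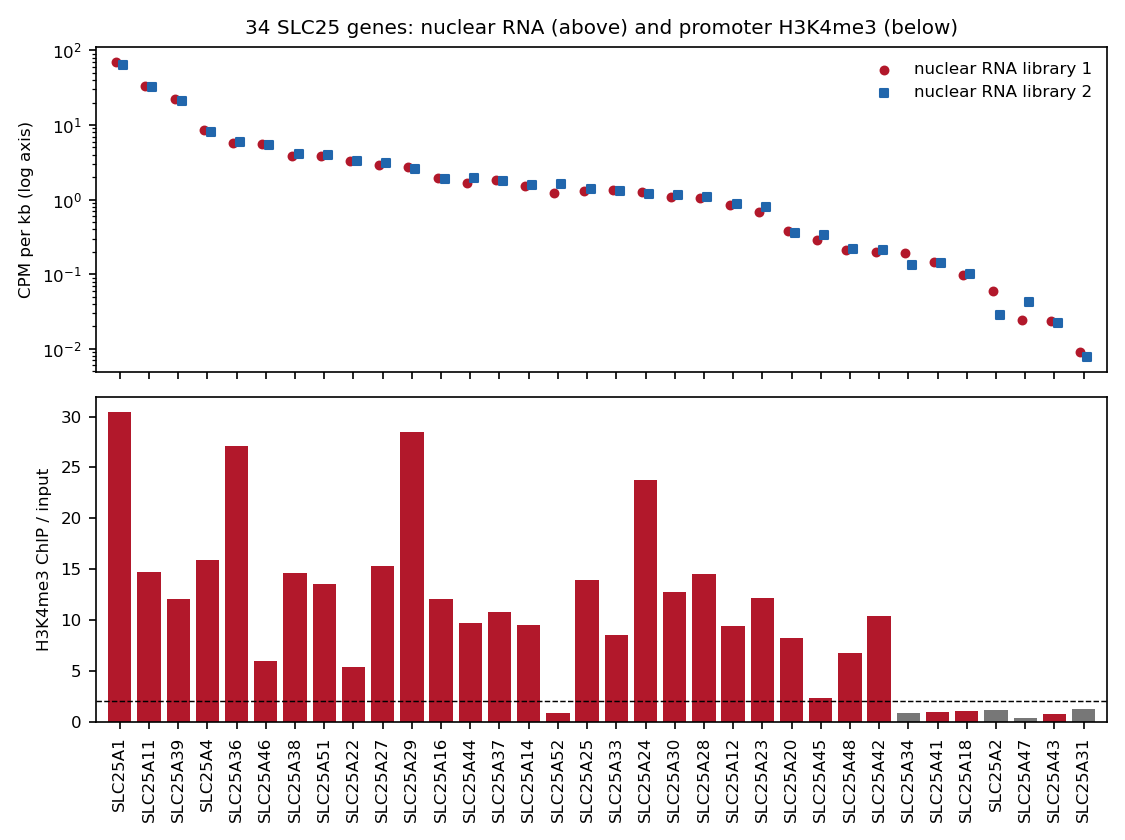
Nuclear RNA per kilobase of the 34 SLC25 genes in each of the 2 RNA libraries (upper panel, log axis) and H3K4me3 ChIP over input at their promoters (lower panel, 1 library each, 1 read per 10000000 added to both, dashed line at 2 times input). Red bars mark genes of at least 1 CPM in both libraries and grey bars the 4 others, all of which are under the line.

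Among the other SLC genes, the highest levels per kb were those of amino acid transporters. SLC38A2, the stress-inducible neutral amino acid transporter SNAT2 (Entrez 54407, chromosome 12, bases 46751971 to 46766645), had 580 and 583 CPM, or 39.6 ± 0.175 CPM per kb (SD, n = 2). SLC1A5, the glutamine transporter ASCT2, had 549 and 513 CPM, or 38.7 ± 1.86 CPM per kb, so the order of these 2 genes is within their spread. SLC33A2 followed at 14.6 CPM per kb, SLC20A1, a sodium-dependent phosphate transporter, at 14.0, and SLC35A4, a relative of nucleotide sugar transporters, at 13.5 CPM per kb. SLC61A1, a molybdate transporter, had 11.7 CPM per kb, SLC37A4, the glucose-6-phosphate transporter of the endoplasmic reticulum, 11.5, SLC6A8, the creatine transporter, 10.1, SLC30A1, the zinc exporter, 9.91, and SLC4A2, a chloride and bicarbonate exchanger, 9.32. Without the division by length, SLC38A1, another glutamine transporter, had the most RNA, with a mean of 704 CPM over a region of 86.4 kb.

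By role, RNA was found for 23 of 27 transporters of nucleosides, nucleotide sugars and vitamins, 20 of 24 metal transporters and 24 of 32 transporters of inorganic ions. It was found for 31 of 61 transporters of amino acids and neurotransmitters, 20 of 39 of organic ions and drugs and 13 of 25 of sugars and polyols. Of the family of zinc importers SLC39, 8 of 9 members had RNA with a median of 124 CPM. Of the organic ion family SLC22, 4 of 16 did, with a median of 0.287 CPM, and of the vesicular and phosphate family SLC17 1 of 9, with a median of 0.0721 CPM. SLC10A2, SLC17A6, SLC18A1, SLC22A12, SLC6A7 and SLC7A13 had no read in either library, which allows up to 3 reads each. A level of 0 in nuclear RNA pooled over many cells cannot tell fewer expressing cells from less RNA per nucleus.

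The transporters that give the kidney tubule its function were mostly near 0. Of 19 in the tables, 6 had RNA. SLC4A4, the basolateral sodium bicarbonate cotransporter, had 98.8 and 98.5 CPM. SLC9A3, the apical sodium and proton exchanger, had 26.4 and 26.3 CPM, and SLC47A2, an exporter of organic cations, 10.5 and 10.9 CPM. SLC12A3, the thiazide-sensitive cotransporter, had 9.41 and 7.84 CPM, SLC7A8, a neutral amino acid exchanger, 5.51 and 6.05 CPM, and SLC7A9, the cystine transporter subunit, 2.42 and 2.46 CPM. Whether RNA was counted by strand is not given, so these 6 levels may include RNA of the other strand. By contrast, SLC22A6, the renal organic anion transporter OAT1, had 0 and 0.0605 CPM. SLC22A12, the urate exchanger, had 0 in both, SLC34A1, the tubular phosphate transporter, 0 and 0.0806 CPM, and SLC5A1, a glucose transporter, 0.127 and 0.0605 CPM.

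RNA was found for 5 of 18 neurotransmitter transporters. SLC1A3, the glial glutamate transporter, had 164 and 165 CPM, and SLC18A2, the vesicular monoamine transporter, had 32.1 and 33.5 CPM. SLC32A1, the vesicular GABA transporter, had 0.0212 and 0 CPM. Of 7 transporters known as targets of the amino acid response, 6 had RNA. SLC7A1, which imports cationic amino acids, had 258 and 265 CPM, SLC3A2, the heavy chain of several exchangers, 209 and 201 CPM, and SLC7A5, its light chain partner LAT1, 126 and 122 CPM. The sixth was SLC1A4, another neutral amino acid transporter, at 60.6 and 56.5 CPM, while SLC7A3 had 0.890 and 0.645 CPM.

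**Figure D2:**
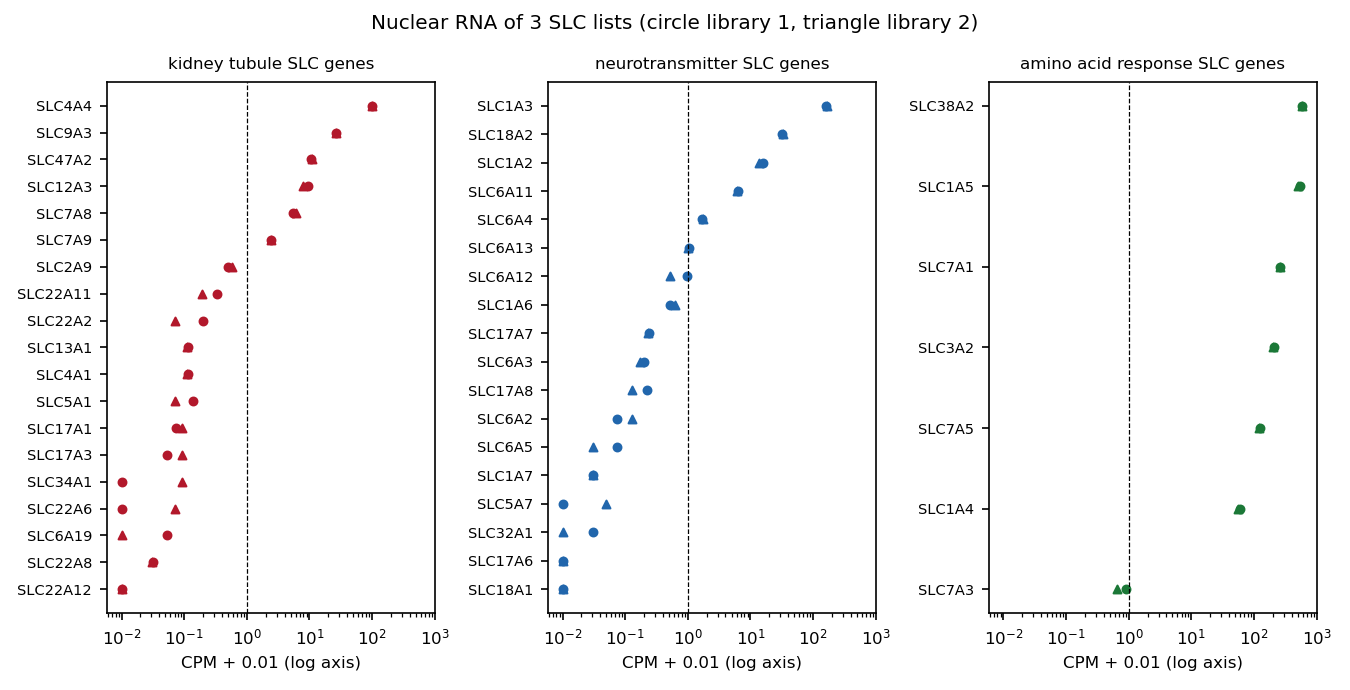
Nuclear RNA of the SLC genes of 3 lists, as CPM + 0.01 on a log axis, with circles for RNA library 1, triangles for RNA library 2 and a dashed line at 1 CPM. Of the kidney tubule genes 6 of 19 lie past the line in both libraries, of the neurotransmitter genes 5 of 18 and of the amino acid response genes 6 of 7.

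H3K4me3 marks the starts of active genes and H3K27me3, placed by EZH2, those held by Polycomb. Both were measured in 1 ChIP library, so the values have no replicate check. At least 2 times input, with 1 read per 10000000 added to both, H3K4me3 was found at 26 of 34 SLC25 promoters and 129 of 228 other SLC promoters, beside 64.4% of all genes. H3K27me3 was found at 0 of 34 SLC25 promoters and 13 of 228 others, beside 5.17% of all genes, so the share in the other SLC genes is near that background. RNAPII passed 2 times input at 22 of 34 SLC25 and 89 of 228 other SLC promoters, beside 52.1% of all genes. EZH2 did at 1 of 34 and 17 of 228, beside 5.77%.

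The 26 SLC25 promoters with H3K4me3 all belonged to genes of at least 1 CPM. SLC25A1 had 261 H3K4me3 reads and 4 input reads, a depth-scaled ratio of 58.9 with an exact 95% interval of 22.7 to 218, which covers counting error only. SLC25A29, a basic amino acid carrier, had 276 reads and 5 input reads, and SLC25A36 had 172 and 2. The EZH2 value at SLC25A36 rested on 11 reads against those 2 input reads. 4 SLC25 genes with RNA lacked the mark, namely SLC25A18, SLC25A41, SLC25A43 and SLC25A52, all under 4 CPM. Among the other SLC genes 30 of the 149 with RNA had no H3K4me3 at the listed start. The highest of these was SLC44A5, of a family of choline transporters, at a mean of 300.3 CPM, followed by SLC23A2, a vitamin C transporter, at 168 CPM and SLC16A4, a monocarboxylate transporter homologue, at 162 CPM. The strand setting of the RNA counts is not given, so these levels may include RNA of the other strand. Conversely 10 genes under 1 CPM carried the mark, among them SLC17A7, the vesicular glutamate transporter, and SLC22A3, an organic cation transporter. No share over all genes is set beside these counts, so they describe SLC genes alone.

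11 other SLC promoters had both marks and 2, SLC5A7 and SLC7A3, had H3K27me3 alone. 5 of those 13 genes had RNA, a count with no share over all genes beside it. SLC9A3 had 14 H3K27me3 reads and none in the input, together with 43 H3K4me3 reads, and its RNA is given above. SLC32A1 had 57 H3K27me3 reads against 12 in the input, a ratio of 4.27 (exact 95% interval 2.27 to 8.75), and 97 H3K4me3 reads. SLC24A4, a sodium, calcium and potassium exchanger, had 20 reads against 3 (ratio 6.00, interval 1.78 to 31.5), with 18.4 and 17.5 CPM of RNA. SLC22A3 had 15 reads against 2 (ratio 6.75, interval 1.57 to 60.8). The ratios were 3.45 for SLC2A5, the fructose transporter, 3.82 for SLC15A1, the intestinal peptide transporter, 4.95 for SLC52A1, a riboflavin transporter, and 2.57 for SLC7A3.

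These H3K27me3 values rest on few reads. The lower interval bound passed 2 for SLC9A3 and SLC32A1 and for no other SLC promoter, and it passed 1 for 16 of them. A constant of 10 reads, the lowest value in every decoded library, was taken off before the ratios, and with it left in 1 promoter in place of 13 passed 2 times input. With 1 read per 10000000 added to both, the promoter nearest under that threshold was SLC38A4 at 1.99, and the nearest above it SLC16A7 at 2.01.

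**Figure D3:**
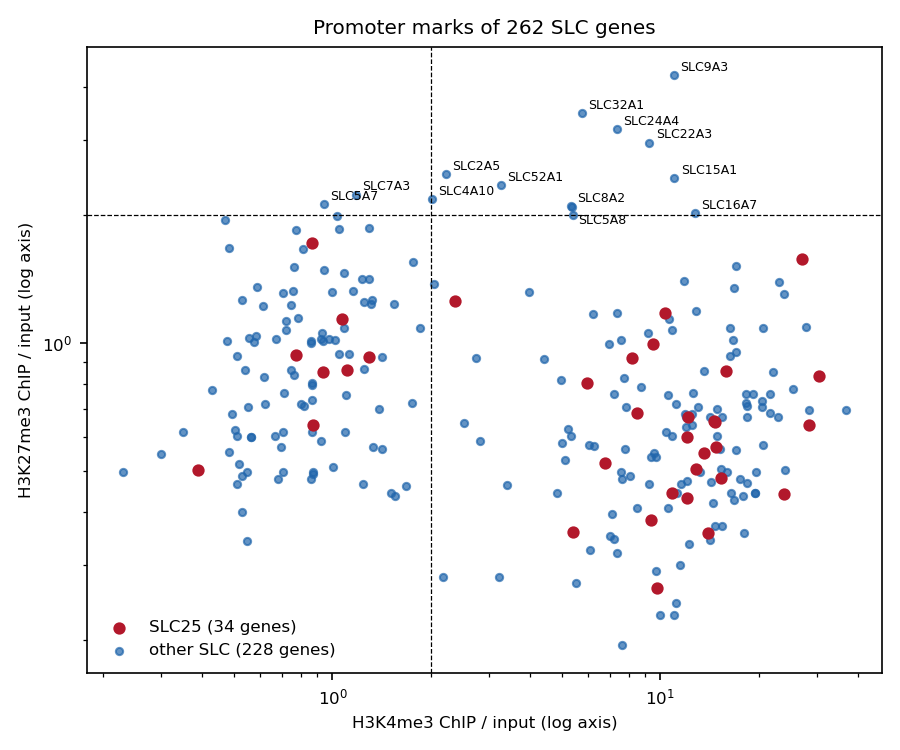
H3K4me3 ChIP over input against H3K27me3 ChIP over input at the promoters of the 34 SLC25 genes (red) and 228 other SLC genes (blue), both log axes, 1 library per mark, 1 read per 10000000 added to both, with dashed lines at 2 times input. No SLC25 gene lies above the horizontal line, and the 13 labelled genes do.

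The sequences just before the starts of 6 members are shown to compare an SLC25 and a plasma membrane gene of high RNA, 2 genes without either mark and 2 with both marks. Each is 250 bases long, from RefSeq (GRCh38.p14), 5′ to 3′ on the gene's strand, with CG pairs in capitals. SLC25A1 lies at chr22:19178737-19178986 (minus strand), SLC38A2 at chr12:46372774-46373023 (minus), SLC25A18 at chr22:17563248-17563497 (plus), SLC22A6 at chr11:62984968-62985217 (minus), SLC32A1 at chr20:38724236-38724485 (plus) and SLC9A3 at chr5:524450-524699 (minus).
SLC25A1: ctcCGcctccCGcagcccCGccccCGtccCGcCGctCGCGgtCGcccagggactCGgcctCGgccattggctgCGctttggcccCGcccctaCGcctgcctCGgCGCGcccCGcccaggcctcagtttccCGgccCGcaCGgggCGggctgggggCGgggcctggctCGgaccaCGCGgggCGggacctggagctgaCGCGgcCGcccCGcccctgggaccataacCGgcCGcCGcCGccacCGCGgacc
SLC38A2: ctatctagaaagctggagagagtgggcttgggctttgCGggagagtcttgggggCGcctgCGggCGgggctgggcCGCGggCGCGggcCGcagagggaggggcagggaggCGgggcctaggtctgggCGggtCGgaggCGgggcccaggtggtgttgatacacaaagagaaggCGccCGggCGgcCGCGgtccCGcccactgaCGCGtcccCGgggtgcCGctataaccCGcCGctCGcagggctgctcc
SLC25A18: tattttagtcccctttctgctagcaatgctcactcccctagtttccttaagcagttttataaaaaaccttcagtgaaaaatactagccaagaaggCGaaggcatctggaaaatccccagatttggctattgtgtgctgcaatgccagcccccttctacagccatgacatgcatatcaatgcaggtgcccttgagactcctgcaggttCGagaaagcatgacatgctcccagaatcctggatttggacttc
SLC22A6: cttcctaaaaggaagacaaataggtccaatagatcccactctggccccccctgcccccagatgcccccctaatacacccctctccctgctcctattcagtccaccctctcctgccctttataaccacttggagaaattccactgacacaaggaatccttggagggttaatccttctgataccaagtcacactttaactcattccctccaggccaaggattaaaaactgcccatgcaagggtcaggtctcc
SLC32A1: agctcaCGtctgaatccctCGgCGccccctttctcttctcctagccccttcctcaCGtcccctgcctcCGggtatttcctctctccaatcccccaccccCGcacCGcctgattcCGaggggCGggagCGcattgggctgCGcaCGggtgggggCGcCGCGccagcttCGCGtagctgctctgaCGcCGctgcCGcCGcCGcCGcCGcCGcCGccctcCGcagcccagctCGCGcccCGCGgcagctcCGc
SLC9A3: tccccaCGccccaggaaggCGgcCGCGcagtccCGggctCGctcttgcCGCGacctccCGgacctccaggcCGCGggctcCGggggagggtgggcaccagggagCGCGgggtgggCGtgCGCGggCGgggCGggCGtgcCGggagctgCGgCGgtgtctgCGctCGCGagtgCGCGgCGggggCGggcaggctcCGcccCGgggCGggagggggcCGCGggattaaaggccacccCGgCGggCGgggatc

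SLC25A1 and SLC38A2 hold 37 and 26 CG pairs in this window, SLC32A1 and SLC9A3, with both marks, 32 and 38. SLC25A18 and SLC22A6, with neither mark, hold 2 and 0. SLC25A18 contains TATAAA as printed, and SLC22A6 contains it on the opposite strand alone, printed as TTTATA. RefSeq had such a window for 208 members, and the most upstream start was taken for the 57 with several. The marks were scored by the authors at starts on hg19. Whether window and mark belong to the same start was not checked, also for the 6 printed. The median was 20.0 CG pairs over 29 SLC25 promoters and 17.0 over 179 others, beside 17.0 over the 10969 windows of all genes in the tables and 10.0 over all 27305 windows. The other SLC median is thus that of the tables. SLC promoters with H3K4me3 had a median of 21.0 pairs (129 windows) and those without it 6.00 (79 windows), beside 22.0 and 4.00 over all genes of the tables with and without the mark.

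Motifs were searched by their letters on both strands. CCGGAAG, the core of the ETS family site, was in 8 of 29 SLC25 windows and 9 of 179 other SLC windows, beside 11.6% of the windows of all genes in the tables. The 8 include SLC25A4, SLC25A24 and SLC25A38. GGGCGG, a GC box, was in 69.0% of SLC25 and 53.6% of other SLC windows, beside 57.4%. TATAAA was in 1 SLC25 and 16 other windows, beside 8.56%. TGACGTCA, the cyclic AMP response site, was in 2 SLC25 windows, those of SLC25A33 and SLC25A36, and 2 others, beside 2.2%. A match describes these letters only.

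The PHC1 ChIP signal at SLC promoters was low and like that of other genes. The deposited columns join the 2 replicates of each protein, so the following are the authors' values, taken back to before input subtraction and given as reads per 10000000 with no error. Their medians at SLC25 promoters were 3.10 for PHC1 dFCS and 2.59 for PHC1, at other SLC promoters 3.18 and 2.89, and over all genes 3.37 and 3.05. PHC1 dFCS was at least 2 times PHC1 at 5 of 34 SLC25 and 18 of 228 other SLC promoters, beside 7.55% of all genes, and 2-fold or more lower at 1 and 6, beside 3.65%.

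SLC25A25, a carrier of ATP-Mg and phosphate, had 3.90 in PHC1 dFCS ChIP and 0.821 in PHC1 ChIP, a log2 ratio of 1.93. SLC25A34 had 6.02 and 2.34, and SLC25A20, the carnitine carrier, 5.13 and 2.23. At the low end, SLC25A2 had 2.29 in PHC1 dFCS ChIP and 5.57 in PHC1 ChIP. Among the other SLC genes SLC7A8 had 5.13 and 1.37 and SLC8A3, a sodium and calcium exchanger, 3.53 and 1.09. SLC45A1 had 0.365 in PHC1 dFCS ChIP and 3.62 in PHC1 ChIP, a log2 ratio of -2.60. With a pseudocount of 10 reads in place of 1, none of these SLC25 promoters and 1 other SLC promoter kept a 2-fold difference.

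PHC1 clusters lay in most SLC regions. Both PHC1 libraries had clusters in 30 of 34 SLC25 and 156 of 228 other SLC regions, beside 71.0% of all genes. The 4SU library had clusters in 29 and 160, beside 73.4%, and the 6SG library in 15 and 79, beside 45.4%. Of the 83 SLC genes under 1 CPM, 35 had clusters in both PHC1 libraries, beside 30.6% of all genes under 1 CPM. Of the 179 with RNA, 151 had them, beside 88.5%.

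Against nuclear RNA, more of the tested SLC genes were called lower than higher in the PHC1 libraries, as was so over all genes. Genes whose library-scaled value (TMM-scaled per-million coverage or reads) reached 5 in at least 2 libraries were tested, which left 28 of 34 SLC25 and 140 of 228 other SLC genes. With limma on log2(value + 1), 10 SLC25 genes were higher in PHC1 PAR-CLIP and 16 lower, and 45 other SLC genes were higher and 78 lower, beside 35.5% of all genes tested called higher and 47.1% lower. The higher calls, 35.7% of SLC25 and 32.1% of other SLC genes tested, were near that background. The lower calls were 57.1% and 55.7%. The median log2 fold was -1.09 over SLC25, -0.73 over other SLC and -0.33 over all genes tested. Over all genes, the regions of higher genes had a median of 48.8 kb and those of lower genes 24.6 kb. With the median fold of genes of like length taken off, which sets all genes to 0, the medians were -0.46 over SLC25 and -0.42 over other SLC. 23 of the 55 higher SLC genes had scaled RNA values under 5 in both libraries, so they entered through PHC1 alone and had to be higher. That is 41.8%, beside 25.9% of all higher genes. Likewise 27 of the 94 lower ones, or 28.7%, entered through RNA alone, beside 25.0% of all lower genes. The folds of such genes describe these libraries and support no direction. Without either 1 of the PHC1 libraries 28 other SLC genes were higher, of 120 tested. Without either 1 of the RNA libraries 44 were lower, of 114 or 115 tested. With 1 library left on a side, genes that reached 5 on that side alone could not enter, so part of these drops was set by the filter.

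The lowest SLC25 folds were those of SLC25A4, SLC25A1 and SLC25A11. All 3 are among the 4 SLC25 genes with the most RNA per kilobase, but RNA is the divisor of the fold, so these values are linked by construction. The scaled values of SLC25A4 were 0.590 and 0.728 in PHC1 PAR-CLIP, from 2 clusters and 1, and 54.5 and 51.0 in nuclear RNA. Its log2 fold was -5.02, but it entered through RNA alone. SLC25A1 had 7.41 and 4.99 in PHC1 PAR-CLIP and 202 and 184 in nuclear RNA, a log2 fold of -4.77 ± 0.205 (SE; limma adjusted p = 0.000175), and the groups did not overlap. SLC25A11 had 11.0 and 10.1 in PHC1 PAR-CLIP, for a log2 fold of -2.93, SLC25A48, which entered through RNA alone, 0.372 and 1.13, for -2.70, and SLC25A24, a carrier of ATP-Mg and phosphate, 11.7 and 11.3, for -2.55.

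At the other end, SLC25A42, a carrier of coenzyme A and adenine nucleotides (chromosome 19, bases 19174803 to 19223841), had 229.6 and 261 in PHC1 PAR-CLIP and 8.48 and 9.23 in nuclear RNA. The PHC1 values rested on 62 and 57 clusters over 3115 and 3182 bases, 99.0% and 99.1% of their coverage was on the gene's strand, and the log2 fold was 4.64 ± 0.115 (adjusted p = 0.000137). SLC25A16, linked to coenzyme A in mitochondria, had 553 and 633 in PHC1 PAR-CLIP and 77.2 and 74.7 in nuclear RNA, from 123 and 132 clusters, with a log2 fold of 2.95. SLC25A18, a glutamate carrier, had 48.9 and 71.6 in PHC1 PAR-CLIP and 2.64 and 2.73 in nuclear RNA, with a log2 fold of 4.03 and 57.5% and 55.4% of the coverage on its strand. SLC25A34 had a log2 fold of 2.63. SLC25A18 and SLC25A34 entered through PHC1 alone.

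SLC25A43 had the top fold, and most of its coverage came from 1 site. Its scaled values were 892 and 585 in PHC1 PAR-CLIP and 1.14 and 1.08 in nuclear RNA, a log2 fold of 8.42, and it entered through PHC1 alone. In PHC1 library 1, 1 cluster at bases 118557712 to 118557861 of chromosome X held 99.2% of its coverage, and in PHC1 library 2 the deepest cluster, at bases 118557776 to 118557823, held 51.9%. With the deepest cluster of each gene left out, a choice made after seeing the data, its log2 fold was 4.84 and no longer called. The deepest cluster of SLC25A43 in the 4SU library, at bases 118557823 to 118557860, lies within that of PHC1 library 1.

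**Figure D4:**
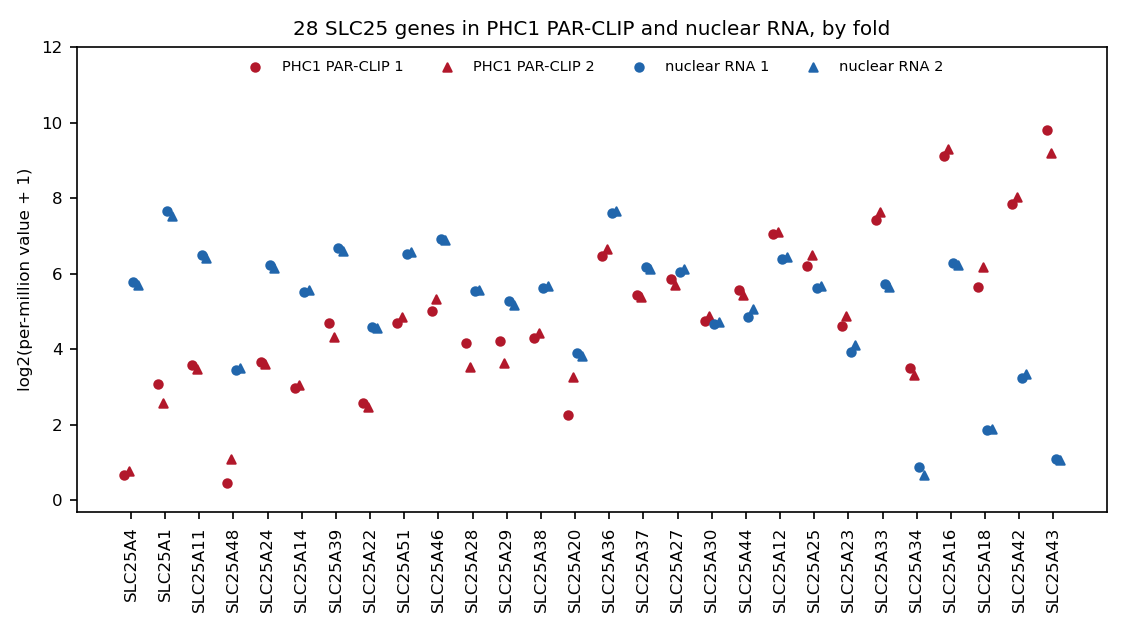
Scaled values of the 28 tested SLC25 genes as log2(value + 1) in the 2 PHC1 PAR-CLIP libraries (red) and the 2 nuclear RNA libraries (blue), ordered by log2 fold from SLC25A4 at -5.02 to SLC25A43 at 8.42. Red points lie under the blue ones on the left and over them on the right, and replicates lie close together.

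The following counts stand beside 35.5% higher and 47.1% lower over all genes tested. Whether any of these small groups differs from those shares was not tested. By substrate, nucleotide, cofactor and phosphate carriers split into 5 higher and 4 lower of 9 tested. Carboxylate and amino acid carriers had 3 higher and 6 lower of 10, metal and glutathione carriers 3 lower of 3, and the rest 2 higher and 3 lower of 6. SLC25A33, a pyrimidine nucleotide carrier, was higher with 171 and 198 in PHC1 PAR-CLIP and a log2 fold of 1.84. SLC25A12, the aspartate and glutamate carrier, was higher with a log2 fold of 0.65, and SLC25A28, an iron carrier, lower with -1.70. Proteins that import or pair with carriers, which are not SLC genes, were called lower at 7 of 10 and higher at 1, with TOMM22, a receptor of the outer membrane import pore, at a log2 fold of -4.17.

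Among the other SLC genes the amino acid response list split. SLC7A5 had 312 and 242 in PHC1 PAR-CLIP and 111 and 107 in nuclear RNA, a log2 fold of 1.32 ± 0.144. SLC3A2 had 441 and 379 in PHC1 PAR-CLIP and 185 and 177 in nuclear RNA, a log2 fold of 1.17 ± 0.0969, and SLC7A1 had a log2 fold of 1.10 ± 0.0754. SLC38A2 had 277 and 257 in PHC1 PAR-CLIP and 512 and 514 in nuclear RNA, a log2 fold of -0.94 ± 0.0635. SLC1A5 was lower with -0.73 and SLC1A4 with -1.65. Thus 3 of 6 tested were higher and 3 lower, beside 35.5% and 47.1% of all genes tested. The 3 higher are the pair SLC7A5 and SLC3A2, which form 1 exchanger, and SLC7A1.

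Among the lowest other SLC genes were SLC67A2 at a log2 fold of -4.74, SLC30A1 at -4.21, SLC33A2 at -4.05 and SLC37A4 at -3.98. SLC10A3 was at -3.83 and SLC26A2, a sulphate transporter, at -3.79. Of these, all but SLC37A4 entered through RNA alone. SLC27A3, of the fatty acid transport family, had no cluster in either PHC1 library and 18.4 and 18.5 CPM of RNA. By role the transporters of nucleosides, nucleotide sugars and vitamins had 5 higher and 13 lower of 21 tested, metal transporters 4 and 12 of 18, and amino acid and neurotransmitter transporters 13 and 15 of 32. These stand beside 35.5% higher and 47.1% lower over all genes tested, and whether a role differs was not tested. Of all other SLC genes, 25 of the 78 lower entered through RNA alone and 20 of the 45 higher through PHC1 alone.

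The highest other SLC genes had mean RNA levels of 0.0207 CPM (SLC1A7) to 20.8 CPM (SLC68A1). SLC22A14, of the organic ion family, had 25.8 and 39.5 in PHC1 PAR-CLIP and 0.150 and 0.373 in nuclear RNA, with 19 and 23 clusters, all on its strand, and a log2 fold of 4.71. SLC26A8, an anion transporter of sperm, had a log2 fold of 4.54, SLC26A3, the intestinal chloride and bicarbonate exchanger, 4.53, SLC7A9 4.08, SLC68A1 4.07, SLC38A8 4.05 and SLC10A1, the bile acid importer of liver, 3.55. Of these genes, SLC22A14 included, all but SLC68A1 and SLC10A1 entered through PHC1 alone. SLC1A7, a retinal glutamate transporter, had 8.37 and 11.9 in PHC1 PAR-CLIP and 0.0212 and 0.0202 CPM of RNA, 1 read in each library, so no fold is given.

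The strand of the clusters bears on these genes. The RefSeq strand was known for 49 of the 55 higher SLC genes, and 13 of them had under 50% of their PHC1 coverage on it in both libraries, which is 26.5%, beside 15.6% of all higher genes. SLC10A1 had 0% on its strand in both PHC1 libraries, SLC26A3 17.0% and 17.9%, SLC68A1 21.6% and 5.16%, and SLC38A8 25.3% and 17.2%. In the kidney tubule list SLC47A2 had 1.29% in PHC1 library 1 and SLC7A8 26.1%. With clusters on the RefSeq strand alone, 4 of the higher SLC genes were called lower, and they are named here after their values were seen. They are SLC10A1, for which no fold is given as it had no PHC1 coverage on that strand, SLC16A4 at a log2 fold of -3.31 against 2.21 on both strands, SLC47A2 at -3.16 against 1.86, and SLC44A3 at -1.30 against 0.72. SLC7A8 had -0.28 and SLC68A1 1.21, neither called, and SLC26A3 stayed higher at 2.42. On that strand 8 SLC25 genes were higher and 15 lower of 25 tested, and 31 other SLC genes higher and 61 lower of 116, beside 35.2% higher and 46.2% lower over all genes. Whether the RNA reads were counted by strand is not given in the sources used here.

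**Figure D5:**
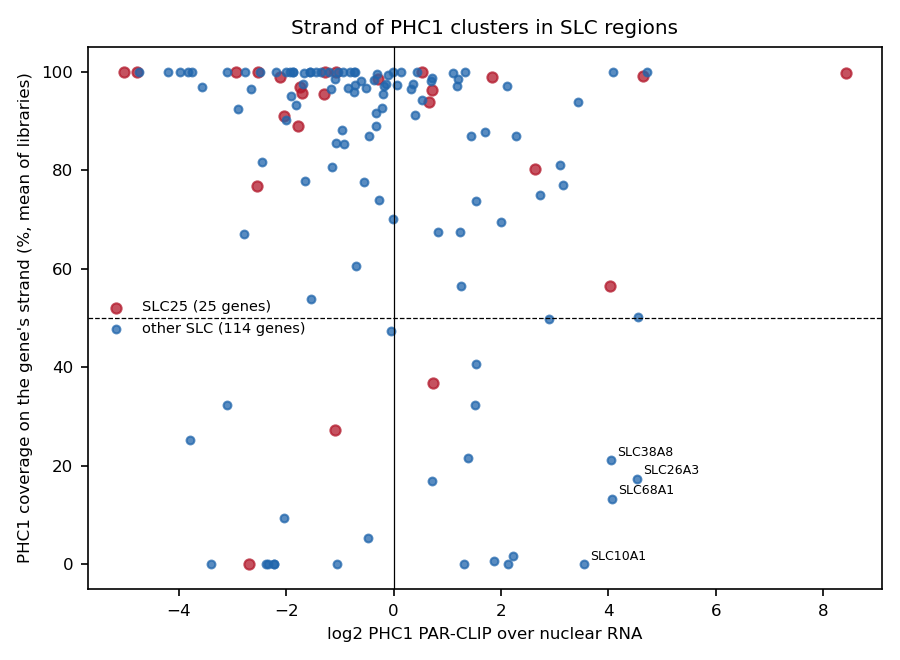
Log2 fold of PHC1 PAR-CLIP over nuclear RNA against the percentage of PHC1 coverage on the gene's RefSeq strand (mean of the libraries with clusters), for 25 SLC25 genes (red) and 114 other SLC genes (blue) with a strand and clusters, with a dashed line at 50%. SLC10A1, SLC68A1, SLC26A3 and SLC38A8 lie under the line at log2 folds of 3.55 to 4.53, and SLC25A43 and SLC25A42 lie near 100%.

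Against RNAPII PAR-CLIP the same PHC1 libraries were used, so this comparison and the one with RNA share them. With both RNAPII libraries, limma called 0 of 25 SLC25 and 0 of 115 other SLC genes tested, as it did over all genes (0%). The 2 RNAPII libraries were made with different nucleosides. At an unadjusted p under 0.05, 2 SLC25 genes were higher and 2 lower, and 26 other SLC genes were higher and 3 lower, beside 14.2% and 7.69% of all genes. On the number of clusters, edgeR called 5 SLC25 genes higher and 4 lower and 27 other SLC genes higher and 18 lower, beside 18.9% and 16.2% of all genes. DESeq2, which gave an adjusted p for few genes, called none of them, beside 0.696% higher and 0% lower.

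With the 4SU library alone as comparator, the spread comes from the PHC1 libraries alone and the lone 4SU library is assumed to vary like them. The calls thus compare these libraries and do not show a difference between the proteins. In that fit the median log2 fold was -0.27 over 24 SLC25 genes and 0.53 over 112 other SLC genes, beside 0.04 over all genes. A gene that reached the filter value in the 4SU library alone could not enter this fit. A gene that reached it in the PHC1 libraries alone could enter and had to be higher. Part of these medians was thus set by the filter, and they support no direction. Whether the sets differ was not tested. Without a filter on low values this fit called none of the SLC genes, so the following values are given as a description.

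SLC25A42 had 221 and 251 in PHC1 PAR-CLIP and 16.5 in the RNAPII 4SU and 31.9 in the 6SG library, a log2 fold over 4SU of 3.75. SLC25A33 had 164 and 190 in PHC1 PAR-CLIP and 28.4 and 0 in the 4SU and 6SG libraries, a log2 fold over 4SU of 2.59. SLC25A24 had 11.2 and 10.9 in PHC1 PAR-CLIP and 64.7 in the 4SU library, a log2 fold of -2.44, and SLC25A28 had -2.07. SLC25A43 had 859 and 563 in PHC1 PAR-CLIP and 2106 in the 4SU library, though it was the highest over RNA. With 4SU and 6SG together its log2 fold was 3.92 ± 3.98, and the 6SG library had no cluster there.

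Among the other SLC genes SLC26A8 had 32.1 and 26.9 in PHC1 PAR-CLIP and 0.731 in the 4SU library, a log2 fold of 4.10. SLC38A8, SLC7A8, SLC5A5, the iodide transporter, and SLC1A7 had clusters in both PHC1 libraries and none in the 4SU library, so no fold is given. These genes and SLC26A8 entered through PHC1 alone and had to be higher, so their values support no direction. SLC68A1 had a log2 fold of 3.50, SLC37A2 3.03 and SLC8A2, a sodium and calcium exchanger, 2.95. SLC37A2 had 3 clusters and 1 in the PHC1 libraries. SLC39A10, a zinc importer, had 11.4 and 11.0 in PHC1 PAR-CLIP and 66.8 in the 4SU library, a log2 fold of -2.47. SLC29A1, the nucleoside transporter ENT1, was at -2.15, SLC36A4 at -2.14, SLC12A2, the sodium, potassium and chloride cotransporter, at -1.85, SLC49A4 at -1.61 and SLC29A2 at -1.57. SLC2A12 was at -1.42 and SLC10A5 at -1.35.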

How the data were processed

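PAR-CLIP, nuclear RNA and ChIP libraries were grouped by the labels. The submitters' processing notes name Bowtie 0.12.7, Bowtie2 2.2.3, TopHat2 2.0.11 and SAMtools 0.1.19, and the build hg19. RNA values are counts per gene as deposited by the authors, and the counter and its strand setting are not given in the sources used here. PAR-CLIP files list the authors' clusters with a mean coverage signal per base, which was multiplied by the cluster length and summed per gene region on both strands. ChIP values are a score deposited by the authors, promoter reads per 10000000 minus input. 14431 of 14432 genes decoded to whole reads (tolerance 1e-08), and a constant of 10 reads, found in all 5 decoded libraries, was taken off. From the joined PHC1 and PHC1 dFCS columns the floor given above was taken off.

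Symbols were matched for 14378 of 14432 genes, and 54 had none. The members and lists were chosen with earlier results of these data known. PAR-CLIP and RNA were compared with limma 3.58.1 (trend, robust; R 4.3.3) on log2(TMM-scaled per-million value + 1), for genes with a scaled value of at least 5 in 2 libraries, with Benjamini-Hochberg adjustment over all genes tested and a threshold of 0.05. Coverage and read counts are different units, so these folds compare relative shares within each library. edgeR 4.0.16 and DESeq2 1.42.0 were run on cluster numbers. Genes named are those with the highest and lowest values of each measure in SLC25 and in the others, and the list members. The fits were tested on simulated data. Intervals are exact at 95% and cover counting error only. 1 value column was not used. Alternatives were the filter, pseudocount, scaling, thresholds, each library left out and a replicate block.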

Additional observations from a re-analysis of the deposited data

How the results depend on the processing

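Against nuclear RNA, scaling by totals alone gave 6 SLC25 genes higher and 17 lower, and 36 other SLC genes higher and 85 lower. Leaving out 1 library gave 7 to 8 and 12 to 17 for SLC25, and 28 to 39 and 44 to 88 for the others. The filter then let in fewer genes, 25 of SLC25 and 114 to 120 others. Replicate numbers did not pair the samples (correlation 0.036 of 2 pairs), and a replicate block gave 10 and 16, and 44 and 78, or 10 and 12, and 45 and 69 with a length correction. On the RefSeq strand the fitted value of SLC10A1 was -3.39, which the pseudocount sets since it had no PHC1 coverage there.

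Against both RNAPII libraries (0 calls), the 4SU library alone gave 7 SLC25 genes higher and 8 lower, and 51 and 23 others. With a length correction, added after seeing the data, these were 6, 7, 48 and 21. edgeR on cluster numbers gave 5, 4, 27 and 18, and leaving out 1 library gave 0 to 18, 0 to 4, 0 to 64 and 0 to 21. Against 4SU alone, both RNAPII libraries or no filter on low values gave 0 throughout, DESeq2 on cluster numbers 3, 0, 5 and 0, and edgeR 6, 5, 28 and 22. Leaving out a PHC1 library there left no residual degrees of freedom and was not run. No gene could enter the fit against 4SU alone through the 4SU library only, so its higher and lower counts were partly set by the filter. With both RNAPII libraries the log2 fold turned to 0.70 for SLC25A14, 0.57 for SLC25A24, 3.92 for SLC25A43 and 1.30 for SLC29A2. On cluster numbers SLC25A43 was 1.22 (DESeq2) and 1.18 (edgeR), and SLC37A2 -1.39 and -1.32. The cause was not tested.

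At 1.5 times input 2 SLC25 and 24 other SLC promoters had H3K27me3, and at 3 times 3 others. With no pseudocount and at least 10 input reads, 84 others had H3K4me3 and 6 H3K27me3, and with the constant of 10 reads left in 1 had H3K27me3. For PHC1 dFCS over PHC1, values after input subtraction gave 8 SLC25 and 50 other promoters higher, and a pseudocount of 10 reads gave 0 and 0 higher, and 0 and 1 lower. Over all alternatives for single genes, 510 values kept their direction and side of the threshold, 77 lost the call and 9 reversed. The 6SG depth, few H3K27me3 reads and 2 libraries a group limit these results.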
